A study of Mus musculus with 384 samples.

Results

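The 10 genes described here encode chemokines and cytokines that lung mesenchymal cells are known to make: Cxcl12, Cxcl14, Cxcl1, Cxcl10, Ccl2, Ccl7, Ccl11, Il33, Tslp and Csf1. They were taken as a list of 10 among the 23422 genes of the deposited tables, by name and not by value, and all 10 had a row in each table. Their transcripts were read in single lung cells of 4 mice. In 2 Lgr5-CreERT2;R26-Tom mice an inducible Cre driven by Lgr5 turns on the red protein Tomato, which then stays on in a cell and its descendants. In 2 Lgr6-EGFP-CreERT2 mice GFP follows the Lgr6 locus at the time of the sort. Cells were Tom+ or GFP+ and negative for CD31, CD45, CD11b and TER119, a gate that removes endothelial, immune and erythroid cells but, as listed, not epithelial ones. Age, sex and induction are not given by animal in the sources used here. Each mouse filled 95 single-cell wells and 1 pool well, and the authors' filter kept 29 and 28 cells of Lgr5 mouse 1 and 2 and 50 and 75 cells of Lgr6 mouse 1 and 2. Values per mouse are given in this order, with n = 2 mice per line.

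Chemokines are small secreted proteins that guide leukocytes through G protein-coupled receptors, and are grouped as CXC or CC by the spacing of their first cysteines. Cxcl12 retains and attracts Cxcr4-bearing cells, Cxcl14 is a chemokine made without a stimulus by epithelia and fibroblasts, Cxcl1 attracts neutrophils through Cxcr2, and Cxcl10 attracts T and NK cells through Cxcr3 after interferon. Ccl2 and Ccl7 recruit monocytes, and Ccl11 (eotaxin) recruits eosinophils. Il33 and Tslp are alarmins that start type 2 immunity, and Csf1 keeps macrophages alive through Csf1r.

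Chemokine promoters are textbook targets of NF-kB, interferon and AP-1, and matches to those motifs are shown because targets of the same factors are read out further on. RefSeq start sites on GRCm38.p6 were at hand for Cxcl12, Cxcl14, Cxcl1, Cxcl10, Csf1 and Il33 (2 starts). The 250 bases before each start were searched on both strands for the NF-kB consensus (in 3.90% of 32851 promoters), for the interferon-stimulated response element GAAANNGAAA (2.98%) and for AP-1, TGANTCA (6.75%). The motif stands in capitals in a window of 30 bases read 5′ to 3′ along the gene's strand. A match is one of letters and not a site shown to be bound.
Cxcl1, NF-kB (chr5:90891164-90891193, plus): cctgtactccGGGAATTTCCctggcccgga
Cxcl10, NF-kB, farther from the start (chr5:92349029-92349058, minus): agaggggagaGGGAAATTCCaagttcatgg
Cxcl10, NF-kB, nearer to the start (chr5:92348973-92349002, minus): cggtttacagGGGACTTCCCtcgggttgcg
Cxcl10, interferon element (chr5:92349083-92349112, minus): tcacgctttgGAAAGTGAAActtacctcac
Cxcl10, AP-1 (chr5:92348945-92348974, minus): cggagccttgcTGAGTCAtctccaaagtca
Csf1, NF-kB, matched on the opposite strand (chr3:107760604-107760633, minus): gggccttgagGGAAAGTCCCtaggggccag
Cxcl14, interferon element (chr13:56296704-56296733, minus): gtgtccacagGAAACAGAAAagcagcaccc
The Cxcl1 match runs into a second, overlapping match on the other strand. Of these genes only Cxcl10 held all 3 motifs, and the windows of Cxcl12 and Il33 held none of these letters.

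All 10 genes are protein coding in GENCODE vM21 on GRCm38 (mm10). Ccl2 (chr11:82035571-82037453), Ccl7 (chr11:82045712-82047525) and Ccl11 (chr11:82057823-82062955) follow each other on the plus strand. Cxcl1 (chr5:90891241-90893115, plus) and Cxcl10 (chr5:92346638-92348889, minus) share a chromosome. The others are Cxcl12 (chr6:117168535-117181367, plus), Cxcl14 (chr13:56288643-56296551, minus), Il33 (chr19:29925114-29960718, plus), Tslp (chr18:32815383-32819797, plus) and Csf1 (chr3:107741048-107760469, minus). Reads had been assigned by words of 31 bases, and the exon words of 7 members occurred in no other gene's transcripts. Cxcl12 and Ccl11 shared 0.110% and 0.0951% of theirs, and Cxcl10 shared 4.47% with Art3, which overlaps it, so some Cxcl10 reads could have been split with Art3.

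The kept cells held 9748 to 4538878 reads each, with a median per mouse of 263129, 272729, 332588 and 1537593. Reads carry no molecular identifiers, so the intervals (exact Clopper-Pearson, 95%) and limits cover counting error only. Cells were classed by log2(TPM + 1), where TPM is abundance corrected for transcript length and depth. The 66 Acta2-high cells (11 or more, with 1, 0, 27 and 38 per mouse) all had at least 4 of 8 smooth muscle markers. That bound was also met by 49 of 94 cells below both cuts and 7 of 22 Sftpc-high cells (classes given below). In Acta2-high cells those markers summed to 22649 to 56808 CPM (reads scaled to a common library total) per mouse. In cells below both cuts they summed to 1140 to 2233 CPM. Acta2, which set the class, is 1 of the 8 and was at a mean of 8540 CPM in Acta2-high cells of the Lgr6 mice. The 56808 CPM came from the 1 cell of Lgr5 mouse 1. Among the 22 Sftpc-high cells (8 or more; 7, 6, 4 and 5 per mouse) 18 had at least 5 of the alveolar type II markers (5 of 7, 4 of 6, 4 of 4 and 5 of 5), with a median of 7 of the 9 in the files per cell. Pooled by mouse, the cells had all 9, at 143637 to 218974 CPM in sum against 31.05 to 130.1 CPM in the other classes. Sftpc, which set the class, is 1 of the 9. At a mean of 123031 CPM over the 4 mice it made up most of those sums. The remaining 94 cells (21, 22, 19 and 32) were below both cuts. No cell passed both, 32 cells lay within 1 unit of the Acta2 cut, and 6 cells lay at 5 to under 8 for Sftpc and 6 at 8 to 10. Pecam1 was at 0 in all kept cells and Ptprc was counted in 2, both Sftpc-high.

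Each member was seen in few cells. A count was found for Csf1 in 35 cells (19.2% of those kept), for Cxcl12 in 30 (16.5%), for Cxcl1 in 24 (13.2%), for Cxcl14 in 15 (8.24%), for Tslp in 13 (7.14%), for Il33 in 10 (5.49%), for Ccl2 in 9 (4.95%), for Ccl7 in 8 (4.4%), for Ccl11 in 6 (3.30%) and for Cxcl10 in 5 (2.75%). Per length the order was another one. Cxcl1 led at a mean of 196 TPM over the 4 mice, followed by Ccl2 at 142.8, Ccl7 at 122.1, Cxcl10 at 72.8, Cxcl12 at 70.6, Il33 at 24.3, Cxcl14 at 22.3, Csf1 at 14.3, Tslp at 3.40 and Ccl11 at 0.626 TPM. The highest log2(TPM + 1) in a cell was 13.33 for Ccl2, 12.8 for Ccl7 and 12.7 for both Cxcl1 and Cxcl10, and Ccl11 reached 5.10. Single cells carried much of this: 1 cell held 48.7% of all Ccl7 reads and 1 held 45.1% of all Cxcl10 reads, while the top cell of Cxcl12 held 17.9% and that of Csf1 18.4%.

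At least 1 member had a count in 96 cells, and 35 cells had 2 or more. Among classes, 19 of 22 Sftpc-high cells (86.4%), 56 of 94 cells below both cuts (59.6%) and 21 of 66 Acta2-high cells (31.8%) had one. The Acta2-high cells had the lowest share although they were read deepest (median 913101 reads against 271678 in Sftpc-high cells and 420512 below both cuts). Per cell they held 3681 genes at the median, against 4862 and 3393.

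**Figure D1:**
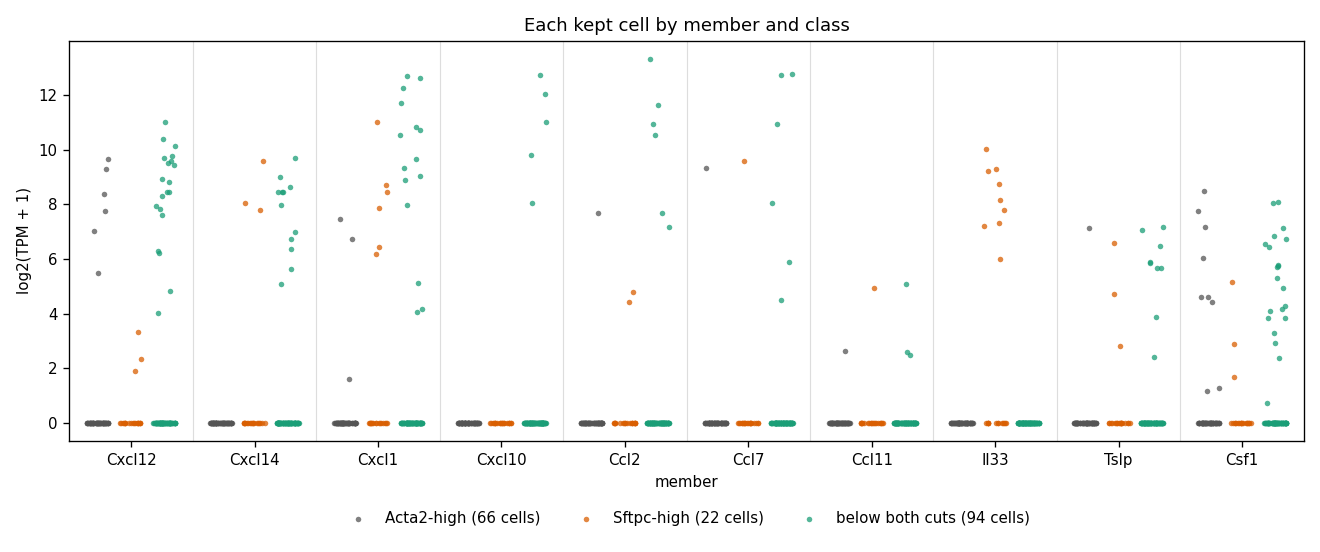
log2(TPM + 1) of each member (x axis) in each kept cell (points), coloured by class and spread sideways at random. Points above 0 are mostly in cells below both cuts, except that every cell with Il33 is Sftpc-high, where 10 of 22 cells had a count.

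Il33 was counted in Sftpc-high cells alone, and in every mouse. It was present in 1 of 7, 2 of 6, 3 of 4 and 4 of 5 Sftpc-high cells and in 0 of 160 other cells (0 of 94 below both cuts, which allows a share of up to 3.19%, and 0 of 66 Acta2-high cells, up to 4.55%). Its level in Sftpc-high cells was 1107, 734, 352 and 289 CPM in the 4 mice, and 0 in the other cells of each mouse. Pooled over the 4 mice, Il33 had 9181 reads in Sftpc-high cells and none among 157281371 reads of lower cells. That is at least 24917-fold higher, the lower side being set to a floor of 3 reads over the group. Lgr6 mouse 2 gave 111323859 of the lower-cell reads, so the bound holds for the pooled reads and not for each mouse. In edgeR's quasi-likelihood test with the mouse as a block, Il33 was the 1 member called of 9 tested (adjusted p = 0.00485). In that test 0.388% of 13919 genes were called in either direction and 0.374% as higher. With no read in lower cells, Il33 passed the low-count filter through the Sftpc-high sums alone. Its call therefore adds no support beyond these counts. The adjusted p ran from 3.85e-26 to 0.0670 over 17 alternatives. It exceeded 0.05 only without the cell with most Il33 reads, the sole Il33 cell of Lgr5 mouse 1 (3142 of 9181 reads).

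The cells with Il33 lacked the genes of collagen-producing cells. Their Sftpc lay between 17.96 and 19.20 on the log2(TPM + 1) scale, while the 12 Sftpc-high cells without Il33 ran from 8.20 to 16.44. All 10 kept cells at 17 or more, a bound chosen after the values were seen, had Il33, and no cell under it did. Col1a1, a main fibrillar collagen of mesenchyme, was counted in 0 of the 10, in 11 of the 12 and in 93.1% of the 160 lower cells. Col1a2 was counted in 0, 9 and 86.9%, and Col3a1 in 1, 11 and 98.1%. The epithelial adhesion genes Epcam and Cdh1 were each counted in 9 of the 10 and 3 of the 12. Genes of type II cells for surfactant and its lipids (Sftpa1, Sftpd and Abca3), the phosphate carrier Slc34a2, Lyz2 and Cd74 were counted in 10 of 10, and in 2 to 7 of the 12. Sftpb did not part the cells by count: it was counted in all 10, all 12 and 68.1% of the lower cells. Its median log2(TPM + 1) was 11.48, 4.21 and 0.70 in the same order. Lamp3 was counted in 9 of the 10, 5 of the 12 and 3.13%, and Abca3 in 22.5% of the lower cells. Ptprc was counted in 1 of the 10 and Pecam1 in none. The label mesenchymal thus went against the data for Il33. Of the cells with each of the other 9 members, 79.2% to 100% had Col1a1, as had 87.9% of kept cells, and 0% of those with Il33 did.

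**Figure D2:**
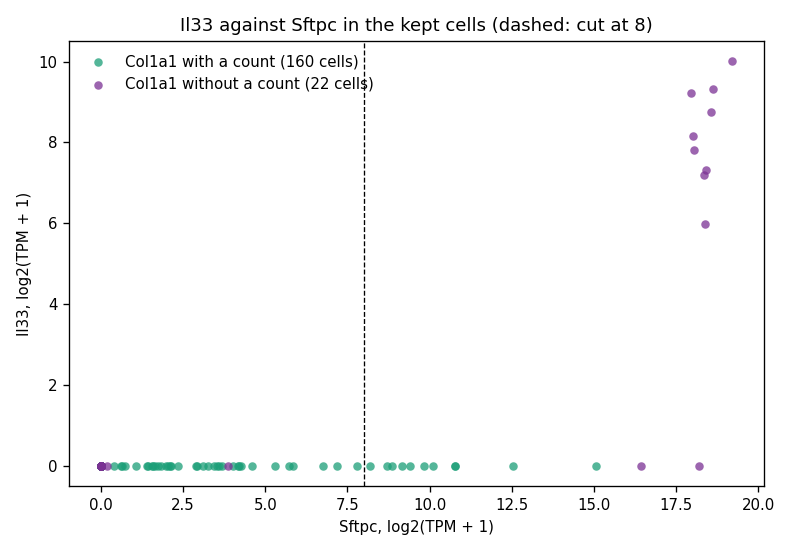
Il33 against Sftpc, both as log2(TPM + 1), in the kept cells, coloured by whether Col1a1 had a count, with the Sftpc cut at 8 dashed. All Il33 lies at the far right in cells without Col1a1, and Sftpc-high cells up to 16.44 have none. A cell with 2 Il33 reads among 3022324 is at 0 in the deposited TPM.

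Few genes of like frequency showed this restriction. Of 1547 other genes counted in 8 to 12 kept cells, 13 (0.840%) had all of those cells in the Sftpc-high class, among them Lcn2, Sfta2, Pla2g1b and Krt23, and the median gene had 20% of them there.

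Among the other members, 6 of 8 tested had a lower fitted level in Sftpc-high than in lower cells, and none was called. Of all 13919 genes only 4540 had a log2 fold change above 0, so most genes were lower too and nothing is read from this count. Cxcl12 was at 0.352, 12.05, 0 and 0 CPM in Sftpc-high cells and at 177.8, 25.2, 156.6 and 61.3 CPM in lower cells. That is lower in each mouse (log2 fold change −7.50 ± 2.25 SE, edgeR adjusted p = 0.303). It was called by DESeq2 (adjusted p = 8.86e-05) and by edgeR without Lgr5 mouse 2 (adjusted p = 0.0386). Csf1 was at 0.704, 9.21, 0 and 0 CPM against 78.04, 27.8, 6.24 and 11.99 CPM, lower in each mouse (edgeR adjusted p = 0.424). The 9.21 CPM of Lgr5 mouse 2 lay above the lower cells of Lgr6 mouse 1. Ccl2 was at 0.704, 1.06, 0 and 0 CPM against 190.9, 30.2, 25.3 and 1.91 CPM, also lower in each mouse (log2 fold change −6.41 ± 1.53 SE, edgeR adjusted p = 0.171). Cxcl10 had no read in the 22 Sftpc-high cells, which allows a share of up to 13.6%. It had 7392 reads in only 5 of 160 lower cells, so no fold is read from its absence. These 4 members were lower at an unadjusted edgeR p under 0.05, as were 1013 of 13919 genes. DESeq2 called them and Ccl7 as lower, beside Il33, where it called 1496 of 13919 genes, 884 as lower.

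Cxcl1 was counted in 6 of 22 Sftpc-high cells (27.3%, 10.7% to 50.2%) and 15 of 94 cells below both cuts (15.96%, 9.22% to 24.95%), intervals that overlap. Its level was 165.2, 25.9, 48.6 and 25.4 CPM in Sftpc-high cells against 91.7, 101.4, 171.9 and 93.1 CPM in lower cells (edgeR log2 fold change −0.90 ± 0.91 SE, adjusted p = 0.807), so the mice differed in direction. Cxcl14 was at 19.7, 26.9, 36.4 and 0 CPM against 7.96, 0, 2.87 and 29.1 CPM, higher in 3 of 4 mice (edgeR adjusted p = 0.824). The median log2 fold change of the 9 tested members was −5.50, and that of all genes −0.78. The members were counted in few cells, and no genes of like frequency were set beside this median, so no loss is read from it.

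Cxcl14 lay in the cells with alveolar fibroblast markers, the genes of the Pdgfra+ matrix cells of the alveolar wall. Of the 15 cells with Cxcl14, 14 had Pdgfra, 13 had Vcam1, 13 had Npnt, 12 had Fgf10, 11 had Col13a1, 10 had Tcf21, 9 had Cd34 and 7 had Wnt2. Among all other kept cells the same markers were counted in 13, 9, 39, 34, 5, 3, 4 and 0 cells. At least 4 of the 8 markers had a count in 15 cells, and 13 of those 15 had Cxcl14 (86.7%, 59.5% to 98.3%), against 2 of the others (1.20%, 0.145% to 4.26%). Every mouse gave this contrast: 2 of 2 against 1 of 27, 1 of 1 against 0 of 27, 4 of 5 against 0 of 45 and 6 of 7 against 1 of 68 cells. The level of Cxcl14 was 163.5 CPM in the 15 cells and 0.348 CPM in the others. At bounds of 3 or 5 markers the share was 81.3% or 92.9%. The 15 cells were deeper (median 1455320 against 561511 reads) with more genes (4634 against 3566). In Lgr6 mouse 1 they were shallower (58752 against 371751 reads), and there 4 of 5 of them and 0 of 45 others had Cxcl14.

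Of those 15 cells, 12 lay below both cuts, 3 were Sftpc-high and 0 were Acta2-high. The pattern was picked among 110 pairs of a member and a marker list after the values were seen, and no test was run. Of 1219 other genes counted in 13 to 17 kept cells, 2 (0.164%) had as large a share of their cells among the 15, and the median gene had 7.69%. Across kept cells, with each mouse's mean removed, Pearson's r of log2(TPM + 1) between Cxcl14 and a marker ran from 0.43 (Fgf10) to 0.82 (Vcam1). It is given as a description, since cells share mouse, plate and depth.

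**Figure D3:**
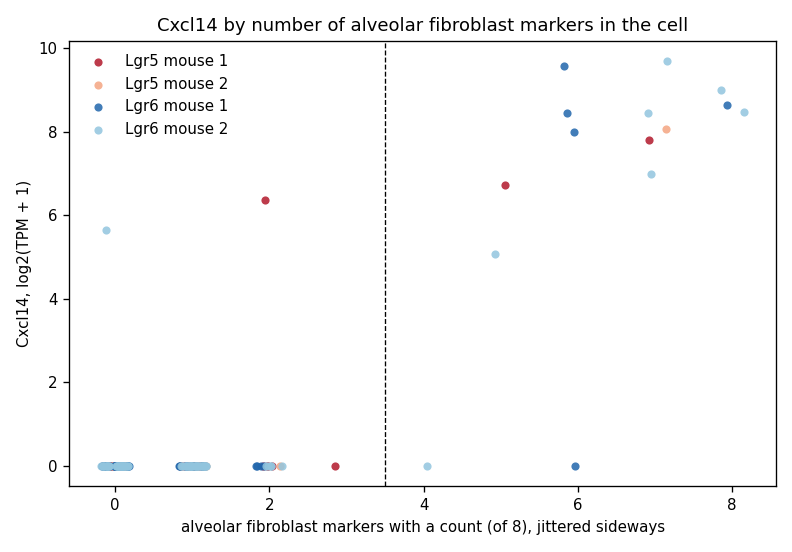
Cxcl14 as log2(TPM + 1) (y axis) by the number of 8 alveolar fibroblast markers with a count (x axis, jittered) in the kept cells, coloured by mouse. Right of the dashed line, at 4 or more markers, 13 of 15 cells have a Cxcl14 count, and left of it 2 cells do.

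Of the other members all but Il33 had a higher share in those 15 cells than in the others. The 15 cells also had more reads and genes, and no genes of like frequency were set beside these shares. With cells pooled over the mice, the intervals were apart for Tslp and Cxcl12 alone, and they do not measure the spread between mice. Tslp was counted in 7 of 15 (46.7%, 21.3% to 73.4%) and in 6 others (3.59%, 1.33% to 7.66%), at 23.4 against 1.21 CPM. In Lgr6 mouse 2 it was counted in 6 of 7 against 2 of 68 cells and in Lgr6 mouse 1 in 1 of 5 against 0 of 45, and the Lgr5 mice had Tslp in none of their 3 such cells. Cxcl12 was counted in 7 of 15 and in 23 others (13.8%, 8.94% to 19.95%), all 7 in the Lgr6 mice (3 of 5 and 4 of 7). Csf1 was counted in 7 of 15 (46.7%, 21.3% to 73.4%) and in 28 others (16.8%, 11.4% to 23.3%), at 12.5 against 13.6 CPM. Il33 was counted in 0 of the 15.

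Only the Lgr6 mice had Acta2-high and lower cells in numbers that allow a comparison (27 and 38 against 23 and 37). Cxcl1 was at 0.227 and 0.361 CPM in Acta2-high cells and at 438 and 175.4 CPM in lower cells, in 3 of 65 cells (27 reads) against 7 of 60 (15597 reads). The log2 fold change of Cxcl1 was −9.88 ± 1.004 SE, and with 2 mice edgeR's adjusted p was 0.169. Single cells carried the level of the lower cells. In Lgr6 mouse 1 one cell held 4902 of 4918 reads, and without it the lower cells were at 2.23 CPM. In Lgr6 mouse 2 the top cell held 5625 of 10679 reads, and without it they were at 86.7 CPM. Cxcl12 was at 34.9 and 22.1 CPM against 343 and 89 CPM (log2 fold change −2.74 ± 0.70 SE, edgeR adjusted p = 0.602). Cxcl14 and Il33 had no read in Acta2-high cells. With both Lgr6 mice pooled, that is at least 1256- and 1493-fold lower at the floor of 3 reads over the group. Of the lower cells' reads, Lgr6 mouse 2 gave 3245 of 3339 for Cxcl14 and 3852 of 3968 for Il33. The bounds hold for the pooled reads and not for each mouse. Those bounds rest on 11 and 7 lower cells with a count, and the 7 with Il33 were Sftpc-high. Cxcl10 had no read in Acta2-high cells either, against 3 of 60 lower cells with a count. All 3 were in Lgr6 mouse 2, so no fold is read for Cxcl10.

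Csf1 did not share this pattern. It was counted in 9 of 65 Acta2-high and 8 of 60 lower cells, at 4.19 and 16.2 CPM against 9.27 and 4.94 CPM, so the mice differed in direction (log2 fold change 0.20 ± 2.01 SE, edgeR adjusted p = 1). It was the member counted in most Acta2-high cells. Of the 8 members tested edgeR called 0, where 0.0296% of 13529 genes were called. At an unadjusted p under 0.05, 4 were lower (Cxcl1, Cxcl12, Cxcl14 and Il33), as were 649 of the 13529 genes. DESeq2 called these 4 members and Ccl2 as lower, where it called 944 of the 13529 genes, 557 as lower. With a cut at 10, which brings the Lgr5 mice into the fit, Cxcl1 had a log2 fold change of −0.71 and Cxcl12 of 0.49 (edgeR adjusted p = 1 for both). Marker genes of other cells moved with the members: all 8 alveolar fibroblast markers, 5 of 5 adventitial and 9 of 9 alveolar type II markers tested had fold changes below 0 in Acta2-high cells, with 4, 5 and 9 at an unadjusted p under 0.05 and only the last list holding calls (3). Their part in the members' values was not tested. Without Sftpc-high cells Cxcl1 stood at −10.00 and Cxcl12 at −2.88.

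The lines mark cells by different reporters and differ in makeup: 1.75% of Lgr5-line and 52% of Lgr6-line cells were Acta2-high, and 22.8% and 7.2% were Sftpc-high. Reporter, line and preparation cannot be told apart. Csf1 was counted in 34.5% and 28.6% of the cells from the Lgr5 mice against 8% and 17.3%, at 55.8 and 23.8 CPM against 6.16 and 10.7 CPM, so both measures lay higher in both Lgr5 mice. Its mean log2(TPM + 1) was 1.54 ± 0.48 (SD, n = 2) against 0.55 ± 0.29, and its log2 fold change was 2.14 ± 1.04 SE (edgeR adjusted p = 0.620). Among cells below both cuts it was counted in 8 of 21 and 7 of 22 against 3 of 19 and 5 of 32 cells. The fitted log2 difference there was 2.61 (edgeR adjusted p = 0.782).

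Cxcl1 was counted more often in the Lgr5 mice, in 27.6% and 21.4% of cells against 8% in both Lgr6 mice. After thinning to 99000 reads a cell, which left out 1, 3, 13 and 2 cells, the shares were 21.4%, 24%, 5.41% and 8.22%. Its level was 112.8, 85.2, 170.5 and 85.9 CPM, and 1 cell held 99.6% of the reads in Lgr6 mouse 1. In CPM the lines overlapped, so this level did not follow the shares. Mean TPM (253.4, 273.1, 73.7 and 184.4) and mean log2(TPM + 1) (2.43, 1.79, 0.56 and 0.74) did, each being higher in both Lgr5 mice. With the measures split, no order is read from the shares. Ccl2 was at 136.2, 23.9, 25.04 and 1.71 CPM in 4, 2, 1 and 2 cells. Ccl7 was at 127.5, 4.55, 8.66 and 5.82 CPM in 2 cells of each mouse, and 1 cell held 88.7% of the reads in Lgr5 mouse 1. For both, the lines overlapped in CPM. Cxcl12 was counted in 24.1%, 17.9%, 16% and 13.3% of cells, at 126.8, 22.4, 154.8 and 54.8 CPM, with intervals of the shares that all overlap. Cxcl14 was counted in 3, 1, 4 and 7 cells at 11.3, 5.76, 3.26 and 26.03 CPM.

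Il33 reached 318 and 156.9 CPM in Lgr5 mouse 1 and 2, against 4.02 and 30.9 CPM in Lgr6 mouse 1 and 2, from 1, 2, 3 and 4 cells. It was the 1 member of 8 with an unadjusted edgeR p under 0.05 (log2 fold change 3.67 ± 1.03 SE, adjusted p = 0.327). DESeq2 called it (adjusted p = 0.00783), as did edgeR without the low-count filter (adjusted p = 9.82e-05), and without its top cell the log2 fold change was 2.13 (edgeR adjusted p = 0.854). All Il33 came from Sftpc-high cells, whose share differed between the lines as given above. Tslp had 2 and 4 reads against 4 and 675, and Ccl11 had 5 and 0 against 2 and 3, both under the filter on low counts. Of the 8 members tested edgeR called 0, as it called 0% of 14086 genes (1312 at an unadjusted p under 0.05, and 564 called by DESeq2).

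In mean log2(TPM + 1) both Lgr5 mice lay above both Lgr6 mice for 4 of the 10 members (Cxcl1, Ccl2, Ccl7 and Csf1), and the reverse held for none. Over the 14086 genes tested the first ordering held in 31% and non-overlap in either direction in 50.9%. The exact two-sided permutation p was 0.33 for each of the 4, the smallest that 2 mice against 2 can give.

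**Figure D4:**
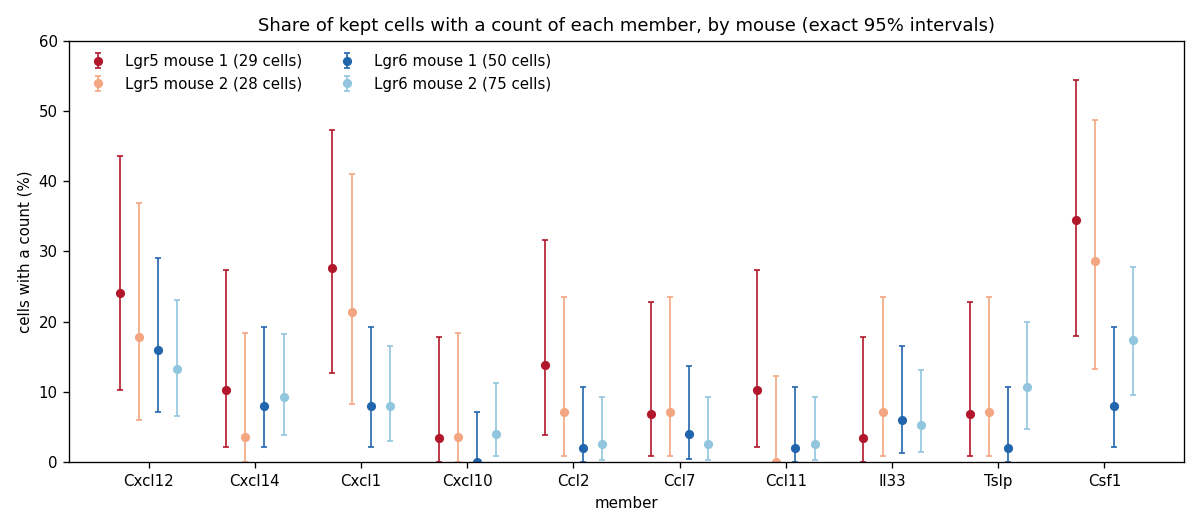
Share of kept cells with a count of each member in each of the 4 mice (points) with exact 95% intervals (bars). The intervals of all 4 mice overlap for Cxcl12, and the points of Cxcl1 and Csf1 are higher in both Lgr5 mice (21.4% to 34.5%) than in both Lgr6 mice (8% to 17.3%).

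The members were seldom seen together. Of 45 pairs the highest r of log2(TPM + 1) was 0.44, for Cxcl14 and Tslp, which shared 6 cells (40% of the Cxcl14 and 46.2% of the Tslp cells). Csf1 and Cxcl12 shared 10 cells, the most of any pair (28.6% and 33.3%). Ccl2 and Ccl7, neighbouring genes that both recruit monocytes, shared 1 cell of 9 and 8. Il33 shared 3 cells with Cxcl1, 1 with Cxcl12 and none with the other 7 members. The most members in a cell were 6, in 2 cells of Lgr6 mouse 2 below both cuts. Both had Cxcl12, Cxcl1, Tslp and Csf1 and at least 4 alveolar fibroblast markers. For Cxcl12, Cxcl1 and Csf1, the members in at least 10% of cells, no gene of 10075 reached an r of 0.5, the bound set for likeness.

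Genes that act with the members come from lists. Of other chemokines 13, 11 and 13 were tested between the lines, for Acta2-high and for Sftpc-high cells. Of these edgeR called 0 (0, 3 and 3 at an unadjusted p under 0.05). Over all genes, 1312 of 14086, 1039 of 13529 and 1544 of 13919 had such a p. Per length Ccl19, which attracts T cells and dendritic cells, led at 165.4 TPM in 37 cells, followed by Ccl27a at 69.2 TPM and Cxcl16 at 28.1 TPM. Ccl19 was at 5.49 against 46.9 CPM in Sftpc-high and lower cells (edgeR adjusted p = 0.414) and at 1.83 against 38.5 CPM in Acta2-high and lower cells (edgeR adjusted p = 0.623). Of 14 other cytokines tested in each comparison edgeR called 0 (1, 1 and 0 at an unadjusted p under 0.05), and Mif (354 TPM), Mdk (128.8 TPM) and Tnfsf13b (49.9 TPM) led. Of the members' receptors 7, 7 and 6 were tested, with 0 calls and 0 at an unadjusted edgeR p under 0.05. Il1rap, a chain of the Il33 receptor, was counted in 73 cells, and Cxcr2, the Cxcl1 receptor known from neutrophils, was counted in 160 cells at 26.99 TPM. Words shared with other genes were looked up for the members only, so the assignment of reads to Cxcr2 was not checked.

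Of the NF-kB targets, Nfkbia, the inhibitor that NF-kB induces, led at 1427 TPM, followed by Icam1, a leukocyte adhesion protein, at 408 TPM in 78 cells. In Acta2-high cells 17 of 18 had a log2 fold change below 0, with 7 at an unadjusted p under 0.05 and 0 called. Their median was −2.26 against 0.02 over all genes, of which 649 of 13529 were lower at such a p. Icam1 was at 61.3 against 499.8 CPM there (edgeR adjusted p = 0.602). Between the lines 14 of 18 NF-kB targets were above 0, 3 at an unadjusted p under 0.05, with a median of 0.66. Of all 14086 genes 572 were higher at such a p. Immediate early and stress genes, which tissue dissociation is known to induce, had a median of −1.28 in Acta2-high cells, with 10 of 21 lower at an unadjusted p under 0.05 and 0 called. Their part in the values of Cxcl1, itself induced early, was not tested. Of 19 interferon targets 6 were lower in Sftpc-high cells at an unadjusted p under 0.05, with 0 called and a median of −5.12. Of all 13919 genes 1013 were lower at such a p, and the median was −0.78. Ifit3 was at 0.302 against 112.8 CPM (edgeR adjusted p = 0.116) and Gbp2 at 1.32 against 107.9 CPM (edgeR adjusted p = 0.112).

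Wells that the authors removed were compared with kept cells. Of 198 removed single-cell wells 75 had under 2000 genes, and the others were split by Ptprc and Pecam1 at a TPM of 1. In the Lgr5 line 54 removed wells had both, with a median of 9996.5 genes against 4051 in the 57 kept cells at a like depth (265260 and 263129 reads). With more genes per well most genes are counted more often there, so each member was set beside the genes counted in about as many kept cells of the line (within 1 cell). Cxcl12 was counted in 87% of those wells (75.1% to 94.6%) and 21.1% of the kept cells, and in 86% and 18.9% after thinning to 99000 reads, while its 1225 like genes had a median of 59.3% in those wells. Cxcl14 was counted in 66.7% against 7.02% (like genes 31.5%), Cxcl10 in 46.3% against 3.51% (like genes 14.8%) and Il33 in 46.3% against 5.26% (like genes 22.2%). A share as high or higher was found in 2.53%, 6.81%, 8.76% and 16.7% of the like genes of these 4 members, in the order given.

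The other 6 members lay near or under their like genes. Tslp was counted in 37% of the wells with both markers (like genes 31.5%), Cxcl1 in 63% (64.8%), Csf1 in 61.1% (70.4%), Ccl2 in 29.6% (42.6%), Ccl7 in 16.7% (31.5%) and Ccl11 in 14.8% (22.2%). Against kept cells, thinning left Ccl7 at 9.30% against 7.55% and Ccl11 at 6.98% against 1.89%, with intervals that overlap. Whether such wells held more than 1 cell was not tested.

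Removed wells with 1 of the 2 markers differed by member. Ccl2 was counted in 10 of 18 wells with Ptprc alone (55.6%, 30.8% to 78.5%) and 3 of 28 with Pecam1 alone (10.7%, 2.27% to 28.2%). Cxcl12 was counted in 33.3% and 60.7% of them and Csf1 in 33.3% and 53.6%, with intervals that overlap. In the 13 Lgr5-line wells with neither, Ccl2 was counted in 0 and Cxcl1 in 15.4%, against 10.5% and 24.6% of kept cells.

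**Figure D5:**
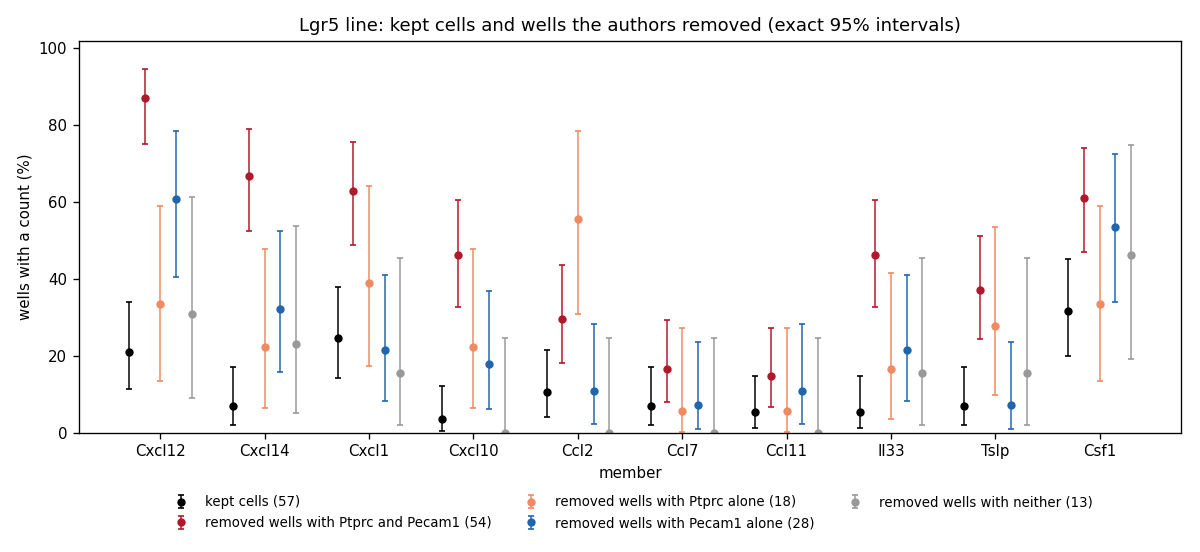
Share of wells of the Lgr5 line with a count of each member (points, exact 95% intervals) in the 57 kept cells and in 4 kinds of removed well with 2000 genes or more, split by Ptprc and Pecam1 at a TPM of 1. Wells with both markers lie highest for every member except Ccl2, where wells with Ptprc alone do (55.6%).

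Over all 4 mice, the removed wells with 2000 genes or more had Il33 more often where Sftpc was highest, and not more often without Col1a1. Of 13 with Sftpc at 17 or more, 12 had Il33 (92.3%), against 24 of 110 under it (21.8%). Il33 was counted in 28 of 97 wells with Col1a1 (28.9%) and 8 of 26 without (30.8%), and in 19 of 57 with at least 4 alveolar fibroblast markers against 17 of 66 others, unlike in kept cells. Of 20 with neither Ptprc nor Pecam1, 9 had at least 4 alveolar fibroblast markers, and Cxcl14 was counted in 9 of these 9 and in 0 of the other 11. The 9 came from all mice (1, 2, 2 and 4). Over all kinds of removed well Cxcl14 was counted in 44 of 57 wells with the markers (77.2%) and 14 of 66 others (21.2%).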

How the data were processed

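SmartSeq2 libraries of single cells, without molecular identifiers, came from 380 wells, with 4 pools. The submitters' notes name bcl2fastq 2.17.1.14 and kallisto 0.43.0, and the authors assigned paired reads of 38 bases to the mm10 transcriptome with words of 31 bases. The deposited counts are transcript estimates summed by gene, and hold whole numbers. The authors deposited log2 values, log2(TPM + 1), for all wells and for cells past their filter, which asked for at least 2000 genes, housekeeping and reporter transcripts and a TPM under 1 for Ptprc and Pecam1. The scaled counts, a score that the authors set to a common depth, entered an alternative only. The filtered tables hold 22276 of 23422 genes, by a rule not given in the sources used here.

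Kept cells' counts were added up by mouse, or by mouse and class (the mouse being a block, and each side holding 3 cells or more). edgeR 4.0.16 in R 4.3.3 tested them (TMM, filterByExpr, glmQLFit, glmQLFTest), and a gene was called at a Benjamini-Hochberg adjusted p under 0.05 over all genes tested. Fold changes are Lgr5 minus Lgr6 or high minus lower. Alternatives were DESeq2 1.42.0, limma 3.58.1 with pseudocounts of 1 and 0.1, library sizes, no filter, Acta2 cuts of 10 and 12, Sftpc cuts of 5 and 10, cells of 100000 counts or more, other sets of cells, each mouse left out and the top cell left out. The fits were first tested on simulated data. Other steps ran in Python 3.11.15 (numpy 2.4.6, pandas 2.3.3, scipy 1.17.1, matplotlib 3.10.9).

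Members, lists and tests were chosen with earlier results of these data known. The text names the members, called genes of a list and the 3 list genes of highest mean TPM. Collagens, Lyz2, Epcam, Cdh1 and the genes seen in Sftpc-high cells alone were named after their values were seen, as were the Sftpc bound of 17, the bounds of 3 and 5 markers and the genes of like frequency. Alternatives for the mean log2(TPM + 1) between the lines were added after seeing the data. Nothing in the labels ties cells to more than the mouse, so p-values measure the spread between these mice. Doublets were not called, and pools entered no comparison.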

Additional observations from a re-analysis of the deposited data

Results flagged for a closer look

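The pool wells enter no comparison, and 3 of the 10 members had more reads in a pool than the 3 that a count of 0 allows. The pool of Lgr6 mouse 1 had 15 reads of Cxcl12, the pool of Lgr5 mouse 1 had 19 reads of Tslp, and the pool of Lgr6 mouse 2 had 33 reads of Csf1. Il33 and Cxcl14 had 0 reads in all 4 pools. The pools held 66586 to 2203576 reads, and the number of cells in a pool is not given in the sources used here.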

How the results depend on the processing

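Il33 in Sftpc-high cells kept its direction in all 17 alternatives and its call in 16, and without the 1 cell with most Il33 reads its log2 fold change was 16.15 (edgeR adjusted p = 0.0670). Of 393 alternative fold changes of the members, 342 kept direction and side of the threshold and 27 reversed. The share of tested genes called between the lines, 0% as reported, was 4% with DESeq2, 2.07% without the low-count filter, 4.5%, 0.27%, 0.114% and 0.44% with limma (mean log2(TPM + 1), mean TPM with pseudocounts of 1 and 0.1, scaled counts) and 0% to 0.217% with a mouse left out (highest without Lgr6 mouse 1). For Acta2-high cells, 0.0296% as reported, it was 6.98% with DESeq2, 5.1%, 0.31%, 0.0813% and 1.4% in the same limma order, 0.107% and 0% at cuts of 10 and 12, and 0% without Sftpc-high cells. For Sftpc-high cells, 0.388% as reported, it was 10.7% with DESeq2, 0.244% with library sizes, 0.7% without the filter, 0.129% with limma at a pseudocount of 0.1, 0.0987% in cells of 100000 counts or more (3 mice), 0.933% at a cut of 10, 0.229% without Acta2-high cells and 0.105% (without Lgr6 mouse 1) to 0.607% with a mouse left out. Members called numbered 1 between the lines with DESeq2 and without the filter. For Acta2-high cells they numbered 5 (DESeq2), 2, 1 and 1 (limma on mean log2(TPM + 1), mean TPM with pseudocount 1, scaled counts), and for Sftpc-high cells 6 (DESeq2) and 1 to 2 with a mouse left out (2 without Lgr5 mouse 2). The cause of these shifts was not tested. Leaving 1 of the 2 Lgr6 mice out of the Acta2 comparison leaves no residual degrees of freedom and gave values with no test.

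Mouse numbers name different animals in the lines, and deviations of same-numbered mice did not go together (r = −0.0122 over 14086 genes). With the mouse number as a replicate block the lines gave 0 calls and a Cxcl10 log2 fold change of 2.57 in place of −0.04. Without the mouse block, 0% of genes were called for Acta2-high and 0.816% for Sftpc-high cells.

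Reversed values between the lines, on the log2 scale, were 0.11 for Cxcl12 with limma on mean log2(TPM + 1). Over left-out mice Cxcl12 ran from −2.27 to 0.40 (0.24 and 0.40 reversed), Cxcl14 from −1.65 to 1.28, Cxcl1 from −0.89 to 0.16, Cxcl10 from −3.93 to 11.85 (0.89 also reversed) and Ccl7 from −0.71 to 4.10. Cxcl1 gave 1.46, 1.17, 1.17 and 0.93 in the limma order. Cxcl10 gave 0.12 with DESeq2, 0.13, 1.78, 3.37 and 1.69 in the limma order, 0.17 without Sftpc-high cells and 0.93 without its top cell. For Acta2-high cells Cxcl12 and Ccl2 gave 0.49 and 0.69 at a cut of 10, where the Lgr5 mice also entered, and Csf1 gave −4.03 at 12 and −0.18 without its top cell. For Sftpc-high cells Cxcl14 and Tslp gave −6.92 and −0.82 at a cut of 10, and Cxcl1 0.83 with limma on mean log2(TPM + 1). The difference in mean log2(TPM + 1) between the lines reversed for Cxcl12 to −0.074 in cells of 100000 counts or more and −0.64 below both cuts, for Cxcl14 to 0.052 in the deeper cells and for Cxcl10 to −0.059 below both cuts. With a mouse left out it ran from −0.37 to 0.59 for Cxcl12 (−0.043 also reversed), −0.41 to 0.018 for Cxcl14, −0.093 to 0.35 for Cxcl10, −0.044 to 0.39 for Ccl11, −0.035 to 0.26 for Il33 and −0.43 to 0.10 for Tslp.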
